A study of Mus musculus with 6 samples.

Results

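Formative and primed pluripotency genes were followed in mouse embryonic stem cells without Dppa2. The set holds 9 genes: the growth factor genes Fgf5 and Fgf8, the transcription factor genes Otx2, Pou3f1, Zic2, Foxd3, Lef1 and T, and the N-cadherin gene Cdh2. The genes were chosen by name, with earlier results of these data known. Their probes are all those whose RefSeq accession belongs to 1 of these symbols. This gave 10 probes, 2 of them for Fgf8, among the 18516 gene symbols that the arrays named. All 9 genes had a probe well above background on at least 2 of 6 arrays, and 1 of the 10 probes, the second Fgf8 probe, did not reach this level.

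Pluripotent cells of the mouse pass from a naive state, that of the blastocyst, through a formative state to a primed state, that of the epiblast at gastrulation. On this path naive transcription factors fall, Otx2 and Pou3f1 redirect enhancer use, FGF ligands mark the epiblast, and E-cadherin begins to give way to N-cadherin. T, Lef1 and other Wnt-responsive genes then mark the primitive streak. Stem cells in serum with LIF are a mixture in which some cells express these later genes at low levels.

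The study has 3 groups of 2 arrays, 1-colour Agilent arrays of total RNA from cells grown on gelatin in 15% serum with LIF. The WT lines carried wild-type alleles of ECAT15-1 (Dppa4) and ECAT15-2 (Dppa2) and were not transduced. The 15-2KO_mock cells were homozygous for the deletion of Dppa2 and for a conditional targeted Dppa4 allele (15-1CT/CT), and carried an empty piggyBac vector with the CAG promoter. The 15-2KO_Flag15-2 cells derived from these 2 lines too, with Flag-tagged Dppa2 expressed from the CAG promoter, so the returned gene was not under its own control. Replicate numbers stand for the mother whose blastocysts gave the lines, on a mixed background of 129Sv and C57/BL6. In any contrast with wild type, the Dppa4 allele and the transduction differ as well as Dppa2. So may sex, which cannot be told apart from genotype here, since 3 tested Y-linked genes were called lower in both knockout groups than in wild type, and no Y-linked gene of the list was above background on any knockout array.

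On each array 55.9% to 60.4% of 41059 probes were well above background, and no spot was saturated. Levels are log2 signals relative to the 75th percentile of the array, which lay at 719 to 856 intensity units. The number of arrays limits the precision. The wild-type arrays were unusually alike: 0.435% of 14943 bright spots differed beyond the 95% limit of the scanner's error, against 21.8% for the mock and 24.2% for the Flag-Dppa2 arrays. They may be 1 sample, so wild-type values are given without an SD. When they counted as 1 sample, no gene was called in any comparison, so every call below, Dppa2 and the genes of other lists included, rests on counting them as 2. Both wild-type and mock arrays were on the first slide and both Flag-Dppa2 arrays on the second, so slide and group cannot be told apart wherever Flag-Dppa2 is compared. Dppa2 stood at 2.13 and 2.07 in wild type, -2.09 and -2.003 in mock, and -0.05 and 0.35 in Flag-Dppa2, in the order that the labels give. The stem cell identity was clear on every array, with all 10 measured general pluripotency genes, such as Pou5f1 and Sox2, and all 17 measured naive genes of 19 listed, such as Esrrb and Tbx3, well above background. The level of Pou5f1 differed between groups without a call in any comparison. It was at 3.01 and 2.67 in wild type, 3.57 and 3.68 in mock, and 5.37 and 4.84 in Flag-Dppa2.

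Promoter sequences were available for 5 of the 9 genes, and 4 are shown because they belong to genes with different behaviour below. Each is the 250 bases before a RefSeq start site in GRCm38.p6, written 5′ to 3′ on the strand of the gene, with CpG dinucleotides, the sites of DNA methylation, in capitals. Fgf5 is at chr5:98253934-98254183 on the plus strand, and the most upstream of the 4 Otx2 start sites is at chr14:48667645-48667894 on the minus strand. T is at chr17:8434173-8434422 and Foxd3 at chr4:99656049-99656298, both on the plus strand.
Fgf5: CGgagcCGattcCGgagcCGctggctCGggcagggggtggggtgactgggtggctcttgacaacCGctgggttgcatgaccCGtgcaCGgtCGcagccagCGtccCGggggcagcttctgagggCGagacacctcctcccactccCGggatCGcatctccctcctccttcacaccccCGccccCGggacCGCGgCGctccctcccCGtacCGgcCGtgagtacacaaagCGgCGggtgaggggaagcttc
Otx2: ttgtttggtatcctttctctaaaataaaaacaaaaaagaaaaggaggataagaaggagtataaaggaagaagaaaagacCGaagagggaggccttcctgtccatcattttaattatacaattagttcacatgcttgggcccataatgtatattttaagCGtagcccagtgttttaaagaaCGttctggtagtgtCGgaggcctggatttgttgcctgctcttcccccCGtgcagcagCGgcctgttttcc
T: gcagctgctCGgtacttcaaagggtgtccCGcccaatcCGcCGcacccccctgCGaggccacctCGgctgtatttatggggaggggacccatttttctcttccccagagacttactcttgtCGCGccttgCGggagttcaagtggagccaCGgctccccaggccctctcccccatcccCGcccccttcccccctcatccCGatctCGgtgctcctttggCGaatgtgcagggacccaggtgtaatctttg
Foxd3: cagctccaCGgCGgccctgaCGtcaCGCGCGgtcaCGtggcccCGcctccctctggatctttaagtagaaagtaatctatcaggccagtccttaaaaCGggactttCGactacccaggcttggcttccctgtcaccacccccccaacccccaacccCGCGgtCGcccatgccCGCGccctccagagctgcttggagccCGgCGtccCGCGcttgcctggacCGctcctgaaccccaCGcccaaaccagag

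The windows differ in CpG content: Fgf5 holds 24 CpG, Foxd3 21, T 14 and this Otx2 window 6, against a median of 6 over 32851 RefSeq windows. CpG-rich windows belong both to Fgf5, which was lower in the knockout, and to Foxd3, which was not called. The called genes Fgf8 and Zic2 had no window, and a link between CpG content and the differences was not tested. The letters CTTTGA, the core bound by Tcf and Lef factors, were searched on both strands and occur in the T window. Of all windows, 13.8% hold them. Over the 11 windows of the 5 genes, CTTTGA occurred in 2, the Otx-type letters TAATCC in 1 (6.25% of all windows), and the octamer ATGCAAAT in 0 (1.60% of all). The T-box letters TCACACCT (1.12% of all) and the forkhead letters TGTTTAC (3.17% of all) occurred in 0 of the 11 as well.

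Mock knockout cells were set against wild type to ask which of these genes differed in cells without Dppa2. The Dppa4 allele, the transduction and perhaps sex differ here too, so dependence on Dppa2 alone cannot be told. The growth factor genes Fgf5 and Fgf8 and the zinc finger gene Zic2 were called lower. Otx2, Pou3f1 and T lay lower on both mock arrays but were not called, Lef1 and Cdh2 were lower in 1 line only, and Foxd3 was the only gene with a higher mean. In bulk RNA, fewer cells that express a gene and less RNA per cell cannot be told apart.

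**Figure D1:**
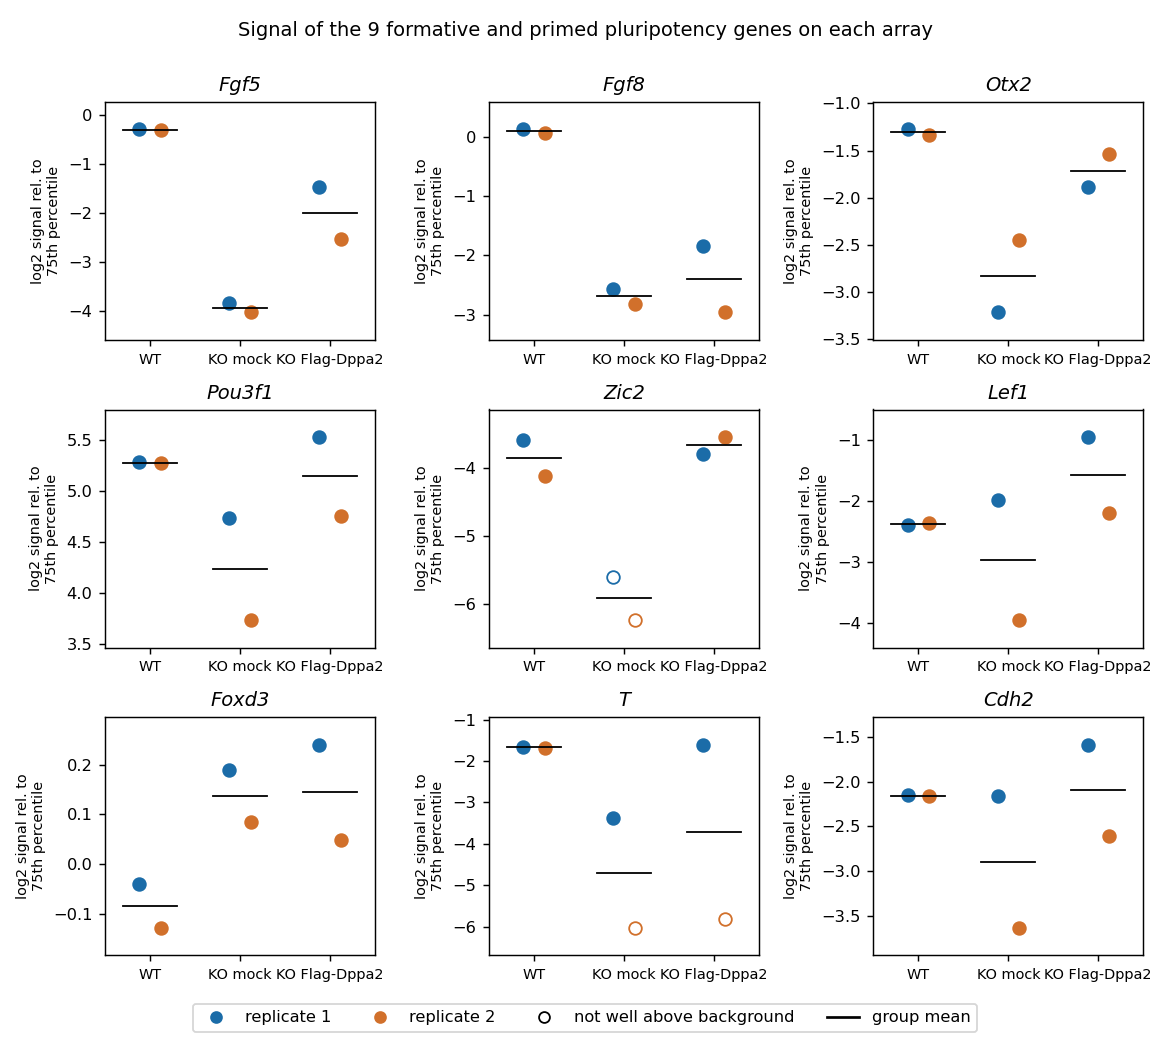
Signal of each of the 9 genes on the 6 arrays (vertical axes: log2 signal relative to the 75th percentile of the array, with a scale of its own per gene); points are arrays, coloured by replicate number, open where the probe was not well above background, and bars are group means. Fgf5, Fgf8, Otx2, Pou3f1, Zic2 and T lie lower on both mock arrays than on both wild-type arrays, and the replicates of T, Lef1 and Cdh2 lie far apart in the knockout groups.

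Fgf5, a secreted ligand of FGF receptors and the classic marker of the epiblast after implantation, stood at -0.28 and -0.30 on the wild-type arrays. It was at -3.84 and -4.02 in mock and at -1.47 and -2.52 in Flag-Dppa2. The groups did not overlap, and the Flag-Dppa2 arrays lay between the others. In intensity units the wild-type spots read 673 and 694 and the mock spots 56.3 and 45.8. Fgf5 was called 12.4-fold lower in mock (log2 difference -3.64, SE 0.37, adjusted p = 0.0213 by limma). Both mock arrays shared this, at -3.55 in line 1 and -3.73 in line 2. Leaving out any 1 wild-type or mock array ended the call (adjusted p = 0.0753 to 0.188), and leaving out a Flag-Dppa2 array did not.

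Fgf8, a ligand of the epiblast and primitive streak that is needed for cells to leave the streak, stood at 0.12 and 0.07 in wild type. It was at -2.57 and -2.81 in mock and at -1.84 and -2.96 in Flag-Dppa2. Its probe was printed in 10 spots, whose SD within an array, a technical spread, was 0.04 to 0.09, while the SD between arrays was 0.18 in mock and 0.80 in Flag-Dppa2 (n = 2). Fgf8 was called 6.89-fold lower in mock (log2 difference -2.78, SE 0.40, adjusted p = 0.0382 by limma). With the replicate number as a block this call was lost (adjusted p = 0.0528), as it was without any 1 wild-type or mock array (adjusted p = 0.103 to 0.278) and without a filter on dim probes (0.075). The second Fgf8 probe, drawn from another transcript accession (NM_001166361), was above background on 1 of 2 wild-type arrays and on no knockout array. Its wild-type mean of -4.56 lay at least 1.73-fold above that of mock, without a test.

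Otx2, a homeodomain factor that drives the step out of the naive state, was at -1.27 and -1.33 in wild type, at -3.21 and -2.45 in mock and at -1.88 and -1.54 in Flag-Dppa2. Its 10 spots had an SD of 0.08 to 0.13 within an array. The 3 groups did not overlap, yet the difference of -1.53 (SE 0.29, 2.89-fold lower) missed the threshold (adjusted p = 0.0599 by limma). It passed with normexp background correction (-1.08, adjusted p = 0.0364) and with an intensity trend (adjusted p = 0.0437). It missed in every other alternative, such as quantile normalization (-1.40, adjusted p = 0.0804 by limma) and the replicate block (adjusted p = 0.0694 by limma). Leaving out 1 array gave differences from -1.91 to -1.15.

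Pou3f1, the POU factor Oct6, which works beside Otx2 in the early epiblast, was at 5.29 and 5.28 in wild type. It was at 4.74 and 3.73 in mock and at 5.53 and 4.76 in Flag-Dppa2. The mock arrays lay below wild type in both lines, at differences of -0.54 and -1.55, and the difference of -1.05 (SE 0.44) was not called (adjusted p = 0.219 by limma).

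Zic2, a zinc finger factor that occupies enhancers in primed cells, was faint even in wild type, at -3.58 and -4.12 (68.3 and 49.2 intensity units). It was not well above background on either mock array (-5.61 and -6.24) and was above it again on both Flag-Dppa2 arrays (-3.79 and -3.54). It was called at least 2.83-fold lower in mock (log2 difference -2.07, SE 0.31, adjusted p = 0.0401 by limma). For such a bound the dim probe was raised, array by array, to the faintest signal that still counted as well above background, unless it was already brighter. The call was lost with the replicate block (adjusted p = 0.0607), with only the 4 arrays of these groups (0.0688) and with normexp (-0.54, adjusted p = 0.0535). Leaving out any 1 array also ended it (adjusted p = 0.0681 to 0.264).

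Foxd3, a forkhead factor of naive cells, of the exit from that state and of the neural crest, was the steadiest gene of the set. It read -0.04 and -0.13 in wild type, 0.19 and 0.08 in mock and 0.24 and 0.05 in Flag-Dppa2. The mock arrays lay above both wild-type arrays, but the difference of 0.22 (SE 0.12) was not called (adjusted p = 0.303 by limma).

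The remaining genes, which mark the primitive streak and the switch of cadherins, split by knockout line. T, the T-box factor Brachyury of nascent mesoderm, stood at -1.66 and -1.68 in wild type and at -3.38 and -6.03 in mock. In Flag-Dppa2 it was at -1.60 in line 1 and -5.82 in line 2. In intensity units, line 1 went from 77.4 in mock to 260 in Flag-Dppa2, where wild type read 260 and 268, while line 2 stayed at 11.4 and 12.8, not well above background on either array. The mock difference of -3.04 had an SE of 1.68 and was not called (adjusted p = 0.323 by limma).

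Lef1, the nuclear partner of β-catenin in Wnt signalling, was at -2.40 and -2.36 in wild type, at -1.99 and -3.95 in mock and at -0.95 and -2.19 in Flag-Dppa2. The difference from wild type was 0.39 in mock line 1 and -1.57 in mock line 2, so the mean difference of -0.59 (SE 0.79, adjusted p = 0.672 by limma) describes neither line. Cdh2, N-cadherin, was at -2.15 and -2.16 in wild type, at -2.15 and -3.64 in mock and at -1.58 and -2.61 in Flag-Dppa2. The difference from wild type was -0.00 in mock line 1 and -1.48 in mock line 2. The difference of -0.74 (SE 0.61) was not called (adjusted p = 0.493 by limma). Line 2 was the lower of the knockout lines in both mock and Flag-Dppa2 for every one of the 9 genes but Otx2 and Zic2, and with 1 array per line and group this was not tested.

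In this comparison 3 of 9 genes were called lower and 0 higher, where 3.65% of all 18764 features tested were called lower, 2.47% higher and 6.12% in either direction. The lower and higher calls over all features numbered 685 and 464, or 690 and 663 after quantile normalization. The 3 genes lost their calls when the wild-type arrays counted as 1 sample (adjusted p = 0.197 for Fgf5, 0.293 for Fgf8 and 0.24 for Zic2), a fit in which no gene at all was called. Levels of 6 of the 9 genes did not overlap and were lower in mock, against 28.6% of all features, and those of 1 gene, Foxd3, were higher, against 37.2%. The median difference of the 9 genes was -1.53, with -1.71 in line 1 and -1.57 in line 2, and that of all features was 0.05. The 9 genes were chosen with earlier results of these data known, so these values describe the set and do not test it.

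**Figure D2:**
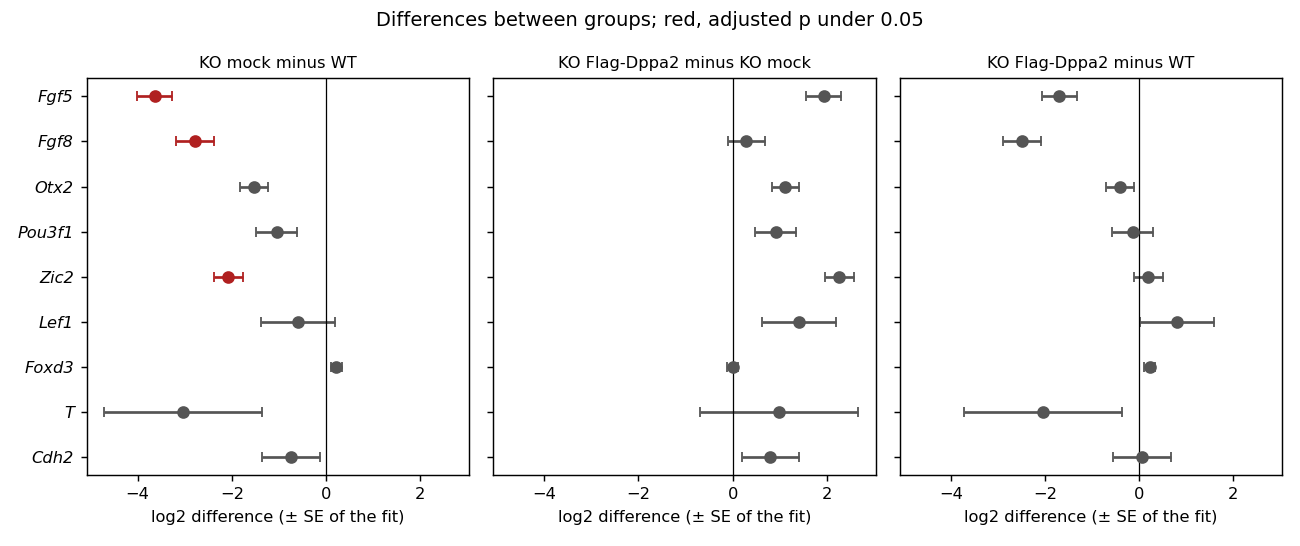
Log2 differences between groups for the 9 genes, with the standard error of the limma fit over all 6 arrays; red marks an adjusted p under 0.05 over all features. Fgf5, Fgf8 and Zic2 are called in mock against wild type, and none of the 9 in the other comparisons.

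The second comparison, Flag-Dppa2 against mock, asks which genes return with Dppa2 in the same knockout lines. All 9 means were higher with Flag-Dppa2, though that of Foxd3 by only 0.01 (SE 0.12) and that of Fgf8 by 0.29 (SE 0.40). None of the 9 genes was called by limma (smallest adjusted p = 0.0798). Without adjustment 3 genes had p under 0.05, Fgf5, Otx2 and Zic2, a threshold that 13.4% of all features passed, while after adjustment 0.741% of features were called, 0.703% higher and 0.0373% lower. Groups did not overlap for 4 genes, all higher, against 18.1% of features higher in this way. This comparison shares its mock arrays with the first, so opposite signs between them are partly built in.

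Zic2, not well above background in mock, was at least 3.23-fold higher (2.26, SE 0.31, adjusted p = 0.0798), with 1.82 in line 1 and 2.71 in line 2. With normexp its difference was 0.69, and that of Fgf5 was 1.12. Fgf5 was 3.83-fold higher (1.94, SE 0.37, adjusted p = 0.149), by 2.37 in line 1 and 1.498 in line 2. Otx2 was 2.18-fold higher (1.12, SE 0.29, adjusted p = 0.241), by 1.33 and 0.91. These 3 genes were higher in both lines but did not pass the test. In the order Zic2, Fgf5 and Otx2, the SD was 0.45, 0.13 and 0.54 between mock arrays (n = 2). Between Flag-Dppa2 arrays it was 0.18, 0.75 and 0.24 (n = 2).

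Pou3f1 was higher by 0.80 in line 1 and 1.03 in line 2 (adjusted p = 0.477), Lef1 by 1.04 and 1.76 (adjusted p = 0.543) and Cdh2 by 0.57 and 1.03 (adjusted p = 0.676), all by limma. In each of these genes line 2 was below line 1 in both groups. T was higher by 1.78 in line 1, and by 0.21 in line 2 where it was not above background (adjusted p = 0.88 by limma). Fgf8 was higher by 0.73 in line 1 and at -0.15 in line 2, and its mean difference was 0.29 (SE 0.40, adjusted p = 0.846 by limma). That of Fgf5 was 1.94, and the ligand genes were not tested against each other. Foxd3 had a difference of 0.01 (SE 0.12).

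**Figure D3:**
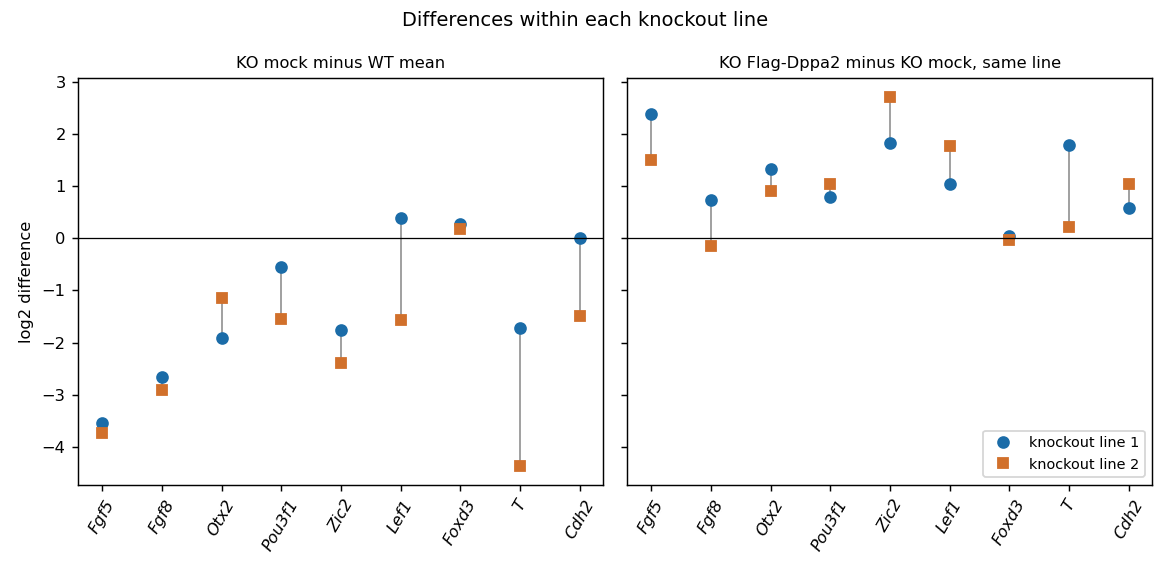
Log2 differences within each knockout line (circles, line 1; squares, line 2) for mock minus the wild-type mean on the left and for Flag-Dppa2 minus mock of the same line on the right. Lines agree closely for Fgf5 and Fgf8 on the left and lie far apart for T, Lef1 and Cdh2 there. On the right 7 of 9 genes are higher in both lines, among them T, which in line 2 was not well above background in either group.

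The third comparison, Flag-Dppa2 against wild type, asks what still differed after the return. None of the 9 genes was called by limma (smallest adjusted p = 0.0811), 2 had an unadjusted p under 0.05, Fgf5 and Fgf8, against 21.6% of features, and 0.533% of features were called, 0.389% lower and 0.144% higher. The FGF ligands lay below wild type in both lines. Fgf8 was 5.63-fold lower (-2.49, SE 0.40), at -1.93 in line 1 and -3.05 in line 2, and with normexp it was called (-1.99, adjusted p = 0.0467). Fgf5 was 3.25-fold lower (-1.70, SE 0.37, adjusted p = 0.113), at -1.17 and -2.23. Otx2 differed by -0.41 (adjusted p = 0.48), with both arrays lower. T differed from wild type by 0.06 in line 1 and by -4.15 in line 2. Zic2 (0.19), Pou3f1 (-0.14), Cdh2 (0.06), Foxd3 (0.23) and Lef1 (0.81) had adjusted p-values by limma from 0.335 to 0.968. Groups did not overlap for 3 lower and 2 higher genes, against 27.1% and 33.2% of features. Dppa2 itself remained 3.87-fold below wild type in these cells (adjusted p = 0.0409 by limma).

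Of 23 other formative and primed genes tested, 1 was called lower in mock and 0 higher, Dnmt3b, the de novo DNA methyltransferase induced in formative cells, 1.65-fold lower (-0.72, SE 0.10, adjusted p = 0.0372 by limma). Their median was -0.23, with 0.08 in line 1 and -0.23 in line 2. Of 17 naive genes, 1 was called higher and 0 lower, Nr0b1, a nuclear receptor cofactor of naive cells, 1.99-fold (adjusted p = 0.0252 by limma). Their median was 0.39, with only 0.19 in line 1 and 0.25 in line 2, and 3 of the 17 were lower in mean. Nr0b1 stayed 1.79-fold above wild type with Flag-Dppa2, without a call (adjusted p = 0.0667 by limma). A part of sex in its difference from wild type was not tested. Of 10 general pluripotency genes, 1 was called higher, Utf1, a chromatin factor of pluripotent cells, 1.83-fold (adjusted p = 0.0384 by limma), with a median of 0.31. None of these lists had a called gene with Flag-Dppa2 against mock, where their medians were 0.07, -0.15 and -0.05. For these lists and those below, 3.65% of all features were called lower and 2.47% higher in mock against wild type. In Flag-Dppa2 against mock, 0.741% of all features were called. A single call in a list of this size is not read as a shift of the list.

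**Figure D4:**
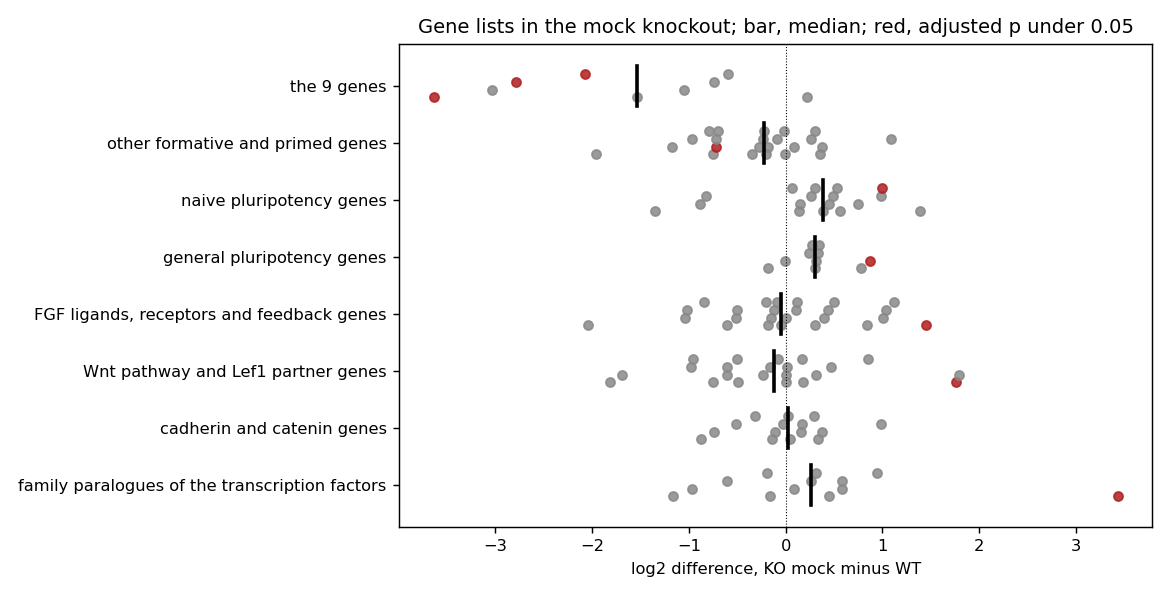
Log2 differences, mock minus wild type, of the genes tested in each list, with a bar at the median of the list and red for an adjusted p under 0.05; cell type markers are not plotted. The 9 genes have a median of -1.53, and the medians of the naive and general pluripotency lists lie above 0, with some genes of each below it. The lists were written with earlier results of these data known.

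Around the ligands, 25 other FGF ligand, receptor and feedback genes had a median of -0.04, and 13 were lower and 12 higher in mean. The only one called was Etv4, an ETS factor induced by FGF and ERK signalling, which was 2.73-fold higher in mock (1.45, SE 0.15, adjusted p = 0.0211 by limma), at 1.34 and 1.39 in wild type and 2.88 and 2.74 in mock. Thus the ligand genes Fgf5 and Fgf8 fell while this FGF-responsive gene rose. Of 22 Wnt pathway genes, 1 was called, Cdx1, a homeobox gene of the posterior axis, at least 2.82-fold higher in mock (adjusted p = 0.0267 by limma). Chosen after their values were seen, the ligand genes Wnt3 and Wnt8a showed the line split of T: Wnt8a was at -0.61 and -0.68 in wild type, at -0.91 in mock line 1 and -3.77 in mock line 2, and at -0.37 and -3.39 in Flag-Dppa2. Wnt3 was at -0.71 and -0.75 in wild type, -1.79 and -3.30 in mock, and -0.51 and -2.44 in Flag-Dppa2, and neither gene was called in any comparison.

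Of 15 other cadherin, catenin and transition genes, 0 were called by limma in any comparison, and their median in mock was 0.03. Cdh1, E-cadherin, read 4.09 and 4.05 in wild type and 3.88 and 4.56 in mock, so line 2, which had the least Cdh2, had more Cdh1 than line 1. Among 13 tested paralogues of the transcription factors, Zic1 was called at least 4.48-fold higher in mock (adjusted p = 0.0369 by limma), the direction opposite to Zic2. Zic1 was below background in wild type (-6.02 and -6.24) and at -2.15 and -3.23 in mock. With Flag-Dppa2 it was at -3.52 and -4.39, where Zic2 differed from wild type by 0.19.

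Of 12562 genes above background on at least 4 arrays, those most like Fgf5 by Pearson's r over the 6 arrays included Tescl, Nptx2, Tmem164 and Gm5797, with r from 0.995 to 0.999. Tescl read -0.30 and -0.31 in wild type and -2.43 and -4.63 in Flag-Dppa2, and was not well above background on either mock array, so its r rests in part on signals without a measured level. Nptx2, above background on all 6 arrays, read -0.52 and -0.56 in wild type, -1.49 and -1.45 in mock and -0.78 and -1.08 in Flag-Dppa2. Those most like Fgf8 were Efhc2, Ankrd40, Etv6, Tmem201 and Helq, with r of at least 0.996. Efhc2 read -1.38 and -1.45 in wild type, -3.18 and -3.37 in mock and -2.72 and -3.42 in Flag-Dppa2. The ligands correlated with each other at 0.898, and Fgf5 with Otx2 at 0.854 and with Foxd3 at -0.588. Many genes outside the set were more alike. By likeness to Fgf5, Fgf8 ranked 599 and Otx2 919 of 12562 genes, and by likeness to Fgf8, Fgf5 ranked 543. These are descriptions over 6 arrays that share the contrast between wild type and knockout.

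Markers of other cell types moved with the groups as well. Of 19 fibroblast and feeder genes, 14 and 15 were above background in wild type, 11 and 8 in mock and 13 and 10 in Flag-Dppa2, while Col6a1, Col6a2, Lum and Prrx1 were below it everywhere. The summed level of those above background, as multiples of the 75th percentile, was 34.9 and 36.6 in wild type, 19.5 and 14.0 in mock, and 38.2 and 21.7 in Flag-Dppa2. Of 15 tested, 4 were called lower in mock, Loxl1, Mmp2, Fbn1 and Twist2, and the first 3 of them rose with Flag-Dppa2. The median of the 15 was -2.54 in mock against wild type, lower than that of the 9 genes, and 0.59 in Flag-Dppa2 against mock. Like T, Lef1 and Cdh2, this list was lower in line 2. Of 11 mesoderm markers, 6 were above background on each wild-type and mock array and 9 and 8 in Flag-Dppa2, with Msgn1 and Foxf1 below it everywhere, and summed levels of 0.62 and 0.63, 0.60 and 0.45, and 0.96 and 0.71. Nkx2-5 and Mesp2 were called lower in mock and Isl1 higher. Of 9 endoderm markers, 7 or 8 were above background on each array, with summed levels of 1.53 and 1.51, 0.90 and 0.66, and 2.53 and 1.71, and Amn was called lower in mock. Summed trophectoderm markers, among them the keratin genes Krt8 and Krt18, were at 78.0 and 78.8 in wild type, 47.9 and 27.3 in mock, and 141 and 43.3 in Flag-Dppa2. Of the neural markers, Nes was called lower and Lhx2 higher in mock, with summed levels of 10.3 and 10.5, 6.19 and 9.02, and 7.16 and 9.99. The part of such cells in the differences of the 9 genes was not tested.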

How the data were processed

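The authors extracted intensity values with Agilent Feature Extraction 10.7.3.1 per the file headers, which subtracts background, removes spatial trends and replaces very dim spots by surrogates, without scaling between arrays. The deposited log2 values of the series matrix come from GeneSpring per the labels, have the same distribution on every array (medians 5.84 to 5.86), correlate with the scanner's log2 values above 0.999, and served as an alternative. Genome coordinates of the probes were not used.

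Control spots (1639 per array) and outlier-flagged spots were removed, log2 signals of a probe's spots were averaged, and 115 probes without a usable spot on some array were dropped. Unversioned RefSeq accessions named 27143 probes through a GRCm38.p6 table, and promoters came from RefSeq in that build. A probe was well above background where at least 0.5 of its spots were. Features above background on at least 2 arrays were kept, 1 probe per symbol (the highest mean) plus 5466 unnamed probes, 18764 in all.

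All 6 arrays entered 1 limma fit of the 3 groups (limma 3.58.1, R 4.3.3; lmFit, eBayes, prior degrees of freedom 1.41, residual 3), two-sided, with the threshold at 0.05 after Benjamini-Hochberg adjustment across the 18764 features. The code was tested on simulated data. Knockout arrays of the same number share a line, and wild-type arrays share the mother by label. Deviations of same-numbered arrays correlated at 0.584 between mock and Flag-Dppa2, -0.02 between wild type and mock and 0.01 between wild type and Flag-Dppa2. P-values measure the spread between these samples. Alternatives were quantile normalization, normexp (offset 50, on median rather than mean signals), the authors' values, 2 other filters, every probe, the replicate block, wild-type arrays averaged, only the 2 groups compared, an intensity trend, and leaving out each array. The 9 genes and all lists were chosen with earlier results of these data known. The rule for named genes took all 9, Dppa2, called genes of the lists (at most 6 per list and comparison), and the 5 genes most correlated with Fgf5 and with Fgf8, of which 1 is not reported here. Gene lists exclude the 9. Y-linked genes were listed after seeing the data. Python 3.11.15, numpy 2.4.6, pandas 2.3.3 and matplotlib 3.10.9 were used.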

Additional observations from a re-analysis of the deposited data

Results flagged for a closer look

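In 3 results the knockout lines moved opposite ways by more than the median SD of their group, and these differences were not tested, since each line has 1 array per group. Lef1 in mock against wild type was at 0.39 in line 1 and -1.57 in line 2. Cdh2 in Flag-Dppa2 against wild type was at 0.57 in line 1 and -0.45 in line 2. Pou3f1 in Flag-Dppa2 against wild type was at 0.25 in line 1 and -0.52 in line 2. The group means of these genes describe neither line.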

How the results depend on the processing

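Genes called in mock against wild type numbered 889, those in Flag-Dppa2 against mock 117 and those in Flag-Dppa2 against wild type 69. In that order, they numbered 305, 37 and 5 without a filter on dim probes, 391, 3 and 0 with the replicate block, 0, 0 and 0 with the wild-type arrays averaged and also with only the 2 groups and the replicate block, and 707, 0 and 3 with only the 2 groups. With normexp they numbered 1359, 45 and 307, with an intensity trend 1469, 83 and 246, with quantile normalization 998, 124 and 156, with the authors' values 1009, 123 and 156, with every probe 968, 113 and 102, and among features above background on all arrays 883, 25 and 18. Leaving out 1 array gave 0 to 707, 0 to 93 and 0 to 3. Without either wild-type array, no gene was called in any comparison.

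Of the 9 genes, 3 were called in mock against wild type. That number was 1 with the replicate block (Fgf5, adjusted p = 0.0367) and without a filter, 0 with the wild-type arrays averaged or with only the 2 groups and the block, 2 on all-array features (where Zic2 was not among the features tested) and with only the 2 groups, and 3 with normexp (Otx2 in place of Zic2), and 4 with an intensity trend. Leaving out 1 array gave 0 to 2, with 0 wherever a wild-type or mock array was left out. In Flag-Dppa2 against wild type 1 of the 9 was called with normexp, Fgf8, and otherwise 0. In Flag-Dppa2 against mock 0 were called in every fit. The replicate block changed no other call of the 9 genes.

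The only sign turned by another normalization or background correction was that of Foxd3 in Flag-Dppa2 against mock, -0.034 with normexp. Leaving out 1 array gave ranges that cross 0 for Foxd3 (-0.088 to 0.10), Fgf8 (-0.27 to 0.85) and T (-1.11 to 3.103) in Flag-Dppa2 against mock, for Lef1 (-1.57 to 0.39) in mock against wild type, and for Cdh2 (-0.45 to 0.57), Pou3f1 (-0.52 to 0.25), T (-4.15 to 0.064) and Zic2 (-0.078 to 0.46) in Flag-Dppa2 against wild type. Slide as a block could not be fitted apart from Flag-Dppa2, and within the first slide the fit of mock against wild type is that with only the 2 groups. Where an alternative changed a call, the cause was not tested. Signals near background, as for Zic2 in mock and T in line 2, limit the size of a difference.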
